A study of Mus musculus with 22 samples.

Results

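Aortas of wild-type C57BL/6 mice were kept for 4 h with oxPAPC and compared with aortas kept for the same time in medium alone. The comparison holds every sample titled oxPAPC (3 arrays) and every sample titled DMEM (3 arrays), 6 of the 22 arrays of the series, and covers all genes of the array. Of 11807 genes named on the array, 7550 passed a filter on low signal and were tested. The oxPAPC aortas received 50 µg/mL of oxidized palmitoyl-arachidonoyl-phosphatidylcholine in DMEM with 1% serum, and the medium aortas received DMEM with 1% serum only. Other wild-type C57BL/6 aortas, incubated for the same 4 h, gave 3 arrays with 4 ng/mL lipopolysaccharide (LPS) and 3 arrays with 50 µg/mL oxidized low density lipoprotein (oxLDL), and both were set directly against oxPAPC. Freshly taken aortas of 4-week-old wild-type C57BL/6 mice (6 arrays) serve only to give levels before incubation, and the 4 arrays of fresh ApoE-/- aortas were not used. The age of the mice whose aortas were incubated is not given in the labels. Each opened aorta was placed in a well of its own, and RNA was taken from cells scraped off the luminal side, amplified and hybridised. The labels do not say whether an array holds 1 aorta, so the p-values below measure only the spread between these arrays. All levels are log2 signals and all differences are oxPAPC minus the group it is set against, so that a difference of 1 is 2-fold.

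OxPAPC is the mixture of products that arises when a common arachidonic acid phospholipid of membranes and lipoproteins oxidizes. Such phospholipids build up in oxidized low density lipoprotein and in atherosclerotic lesions, and their reactive members modify cysteines of proteins. A sensor of this kind is KEAP1, which otherwise marks the transcription factor NRF2 for degradation. NRF2 that escapes binds antioxidant response elements and drives genes of glutathione synthesis, thioredoxin recycling and quinone reduction. Endothelial cells are also known to respond to oxidized phospholipids with cholesterol synthesis genes, amino acid stress genes controlled by ATF4 and inflammatory genes.

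The cells are labelled as aortic endothelial cells, and the arrays also held smooth muscle transcripts. Pecam1, an adhesion molecule that defines endothelium, had log2 signals of 11.26, 11.25 and 11.39 in the oxPAPC arrays, against 11.30, 11.30 and 11.37 in the medium arrays. Myh11, the myosin heavy chain that defines smooth muscle, had 11.60, 11.51 and 11.36 with oxPAPC, against 9.93, 10.28 and 11.02 in medium. Both genes, named here as defining markers outside the rule for named genes, were thus among the brighter ones in every array of both groups. The mean of the 15 smooth muscle markers on the array was 8.96, 8.89 and 8.57 in oxPAPC arrays 11, 12 and 13, against 7.52, 7.90 and 8.37 in medium arrays 9, 10 and 11. The mean of the 18 endothelial markers was 7.60, 7.66 and 8.01 with oxPAPC, against 8.36, 8.41 and 8.51 in medium. The groups did not overlap in either mean. In RNA of a mixed scrape, fewer cells of a type and less RNA per cell of that type cannot be told apart. OxPAPC array 13 stood apart from the rest of its group. Arrays 11 and 12 correlated with each other at 0.984 across the 7550 tested genes, whereas array 13 correlated with them at 0.955 and 0.960 and with its closest array of another incubated group at 0.961. Where leaving out a single array moved a count of a gene list by more than 1.5 times, or ended the call of a named gene, that array is named by its group and number. Counts of a list that change at all without oxPAPC 13 are given in the same way.

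**Figure D1:**
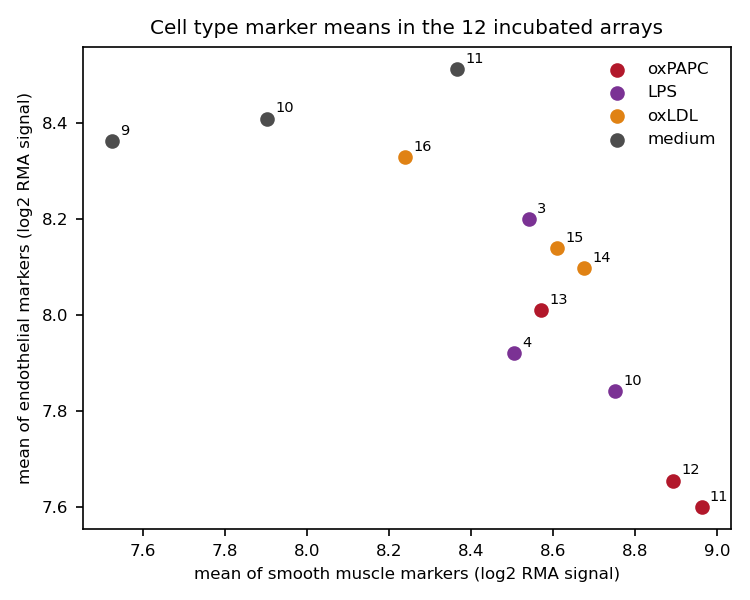
Mean log2 signal of 15 smooth muscle markers (horizontal axis) and of 18 endothelial markers (vertical axis) in each of the 12 incubated arrays, with the replicate number beside each point. The oxPAPC arrays lie lower on the endothelial axis and further right on the smooth muscle axis than the 3 medium arrays, with oxPAPC array 13 nearest to the other groups.

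OxPAPC changed many genes in both directions. Of 7550 genes, 1606 passed an adjusted p of 0.05 in limma's moderated test (21.3%), 630 of them higher (8.34%) and 976 lower (12.9%) with oxPAPC. At least 2-fold differences were seen for 199 of the higher and 311 of the lower genes, and the median difference over all tested genes was -0.05. Without oxPAPC array 13, 1999 genes were called, and 1425 of the 1606 were called again. Leaving out each of the 6 arrays in turn kept 573 of the 1606 calls each time. Without medium array 9, 10 or 11 the count was 783, 1058 or 1018, and without oxPAPC array 11 or 12 it was 768 or 735. Adding the smooth muscle marker mean to the fit as a covariate left 0 genes called by limma, with 1073 at an unadjusted p under 0.05, and the endothelial mean left 2, with 912. Without a covariate 2750 genes had an unadjusted p under 0.05. The covariates multiplied the median standard error by 1.74 and 2.0, while 1580 and 1463 of the 1606 differences kept their direction, with a median size of 0.836 and 0.66 times that of the fit without a covariate. Signals below the 40th percentile of all probe sets, which lay between 4.58 and 4.65 in the incubated arrays, are near the floor of the array, and where a group of a named gene averages below it, the size of the difference is not exact. The marker means move with the comparison, and their part in the results below was not tested further.

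The largest rise was that of Tktl1, a transketolase-like gene of the pentose phosphate pathway family. Its log2 signal was 7.51, 8.12 and 7.83 in the oxPAPC arrays, against 4.92, 5.48 and 4.71 in the medium arrays, a difference of 2.78 ± 0.38 (SE; limma adjusted p = 0.00132). Every oxPAPC array lay more than 2 units above every medium array. Of the 12 largest rises, 3 are of genes known from contractile cells. Gucy1b1, the beta subunit of the nitric oxide receptor guanylate cyclase, rose by 2.04. Kcnmb1, the smooth muscle subunit of the large calcium-activated potassium channel, rose by 1.93, and Cacna2d1, a calcium channel subunit, by 1.91. With the smooth muscle mean as a covariate these 3 differences were 0.85, 0.31 and 0.28. That covariate changed the sign of Rbp4, also among the 12, while the rest of the 12 kept theirs. The potassium channel Kcnj15 rose by 2.01 with a medium mean below the 40th percentile, and the phosphatase receptor Ptprz1 by 2.39. Polg2, the accessory subunit of the mitochondrial DNA polymerase, rose by 1.89, and all 3 of its oxPAPC arrays (7.96, 7.64 and 6.61) lay above the medium arrays (5.42, 5.63 and 5.50). Rasl2-9 rose by 2.38, but its medium mean was also below the 40th percentile, and it is a near copy of Ran, so that its probe set may read both. The retinol carrier Rbp4 (1.98) and Fam13c (1.89) complete the 12 together with Gclm and Slc7a11 below, and leaving out single arrays ended 2 of these limma calls, Rbp4 without oxPAPC 12 or medium 9 or 10 (1.70 to 1.74, adjusted p = 0.0538 to 0.0687) and Fam13c without oxPAPC 11 or 12 or medium 9 (1.5 to 1.83, adjusted p = 0.0529 to 0.0681).

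The largest negative difference was that of Igfbp3, a secreted binding protein of insulin-like growth factors. It had log2 signals of 3.47, 3.55 and 3.97 with oxPAPC, against 7.44, 8.74 and 6.48 in medium, and the difference was -3.89 ± 0.52 (SE; limma adjusted p = 0.00109). All its oxPAPC arrays were below the 40th percentile, so neither the size of the fall nor its rank is exact. The oxPAPC arrays were close together and the medium arrays spread over more than 2 units, without overlap. Lamb1, a laminin chain of basement membranes, fell to 4.46, 4.58 and 5.12 with oxPAPC, against 7.38, 7.34 and 7.63 in medium. Its difference was -2.73 ± 0.38 (limma adjusted p = 0.00134). The other large falls included the glycosyltransferase B3galnt1 (-2.65), complement C4b (-2.32), the aminopeptidase Anpep (-2.32), the transcription factor Tead4 (-2.28), the ribosome rescue factor Pelo (-2.25), the fatty acid carrier Fabp5 (-2.2) and the stem cell glycoprotein Prom1 (-2.19). All 7 remained called with each array left out in turn, and C4b and Prom1 averaged below the 40th percentile with oxPAPC. Olr1, Cxcl12 and Il6, which complete the 12 largest falls, are described with their groups.

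Of 31 listed NRF2 targets, 27 were on the array and 25 were tested, and 12 of these rose, 1 fell and 12 did not pass the test (14 rises and 0 falls without oxPAPC 11, 11 and 1 without oxPAPC 13, 11 and 0 without oxPAPC 12 or medium 10, 10 and 0 without medium 9 or 11), with a median difference of 0.70, against -0.05 over all tested genes. Without oxPAPC array 13 the median was 0.50. Gclm, the modifier subunit of glutamate-cysteine ligase, which starts glutathione synthesis, had log2 signals of 9.74, 10.22 and 10.58 with oxPAPC, against 7.43, 8.23 and 7.72 in medium. The difference was 2.39 ± 0.25 (SE), a 5.24-fold rise (95% interval 1.84 to 2.94 on the log2 scale; limma adjusted p = 0.000504), and no oxPAPC array overlapped a medium array. Slc7a11, the cystine carrier that supplies glutathione synthesis, had 6.57, 6.63 and 8.07 with oxPAPC, against 5.06, 5.65 and 4.31 in medium. It differed by 2.08 ± 0.43 (limma adjusted p = 0.00783), with oxPAPC array 13 above the other two arrays by more than 1 unit. Gclc, the catalytic subunit of the same ligase as Gclm, had 10.36, 10.56 and 10.97 with oxPAPC, against 9.37, 9.65 and 9.35 in medium, and rose by 1.17 (limma adjusted p = 0.00177).

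The promoters of the first genes of the core lists that rose and hold a searched motif are shown because they hold letters of the elements through which NRF2 and ATF4 are known to act. Each window is the 250 bases before the start of a transcript, 5′ to 3′ on the gene's strand, from RefSeq on GRCm38.p6, and capitals mark the motif match. Gclm lies at chr3:122245307-122245556 on the + strand and Txnrd1, thioredoxin reductase, at chr10:82858956-82859205 on the + strand (the second of 3 starts), and both hold TGACNNNGC, the core of the antioxidant response element, read on the opposite strand. Slc7a11, at chr3:50443614-50443863 on the - strand, holds TGATGNAA, the core of the element read by ATF4, once on each strand. Vldlr, a lipoprotein receptor of the ATF4 list, at chr19:27216770-27217019 on the + strand (the second of its starts), holds the same letters on the opposite strand.
Gclm: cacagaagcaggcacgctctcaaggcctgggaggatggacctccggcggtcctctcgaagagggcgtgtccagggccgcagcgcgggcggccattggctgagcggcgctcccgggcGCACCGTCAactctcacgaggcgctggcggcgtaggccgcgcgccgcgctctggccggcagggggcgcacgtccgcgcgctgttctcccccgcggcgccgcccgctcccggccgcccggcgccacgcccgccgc
Txnrd1: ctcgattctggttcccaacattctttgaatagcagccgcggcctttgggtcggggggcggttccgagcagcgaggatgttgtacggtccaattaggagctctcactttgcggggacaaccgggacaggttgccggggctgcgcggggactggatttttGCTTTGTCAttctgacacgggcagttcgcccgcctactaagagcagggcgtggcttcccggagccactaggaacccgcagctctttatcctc
Slc7a11: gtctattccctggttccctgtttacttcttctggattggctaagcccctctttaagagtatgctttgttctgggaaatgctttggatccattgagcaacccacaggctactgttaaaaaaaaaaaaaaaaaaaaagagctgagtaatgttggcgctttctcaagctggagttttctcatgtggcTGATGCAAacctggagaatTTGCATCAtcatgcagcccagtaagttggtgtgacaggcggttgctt
Vldlr: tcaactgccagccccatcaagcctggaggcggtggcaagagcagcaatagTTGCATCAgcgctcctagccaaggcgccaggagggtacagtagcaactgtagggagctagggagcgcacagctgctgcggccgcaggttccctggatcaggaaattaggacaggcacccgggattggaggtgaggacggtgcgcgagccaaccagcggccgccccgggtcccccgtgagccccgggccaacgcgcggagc
The first base of the match lies 134 bases before the start in Gclm, 92 in Txnrd1 and 200 in Vldlr, and in Slc7a11 the nearer of the pair begins 47 bases before it. Both strands were searched, and neither motif contains the other. Of 12 NRF2 targets that rose, 8 had a window, and 3 of these (Gclm, Txnrd1 and Prdx1) held TGACNNNGC, against 14.1% of 6114 tested genes with a window. The same letters were in 2 of 6 rising heat shock genes with a window (Dnajb1 and Hsph1) and in 2 of 8 falling ATF4 genes with one (Aars and Slc7a1). TGATGNAA was held by 1 of the 8 rising NRF2 targets with a window (Slc7a11), against 2.44% of tested genes. A match describes these letters only, and its absence says only that they are not in this window.

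Among genes of thioredoxin and peroxide handling, Srxn1, which restores oxidized peroxiredoxins, had 10.17, 10.31 and 11.30 with oxPAPC, against 8.80, 9.38 and 8.43 in medium, and rose by 1.72 ± 0.30 (SE; limma adjusted p = 0.00358). Gsr, glutathione reductase, rose by 1.09, and Txnrd1, whose oxPAPC arrays (10.81, 11.05 and 10.94) all lay above its medium arrays (10.26, 10.26 and 10.10), by 0.73. Among detoxifying enzymes, Nqo1, a quinone reductase, had 8.47, 8.21 and 9.98 with oxPAPC, against 6.88, 7.18 and 7.35 in medium, a difference of 1.74 ± 0.36 (limma adjusted p = 0.00783). Hmox1, which opens the haem ring, had 11.40, 11.43 and 11.73 with oxPAPC, against 9.90, 10.47 and 9.63 in medium, a rise of 1.52 ± 0.23 (limma adjusted p = 0.00197). The glutathione conjugate pump Abcc1 rose by 1.04 and malic enzyme Me1, which makes NADPH, by 0.70. The carbonyl reductase Cbr3 (0.84) and peroxiredoxin Prdx1 (0.46) rose as well, and Ugdh, which makes glucuronic acid for conjugation, fell by 0.68, with overlapping groups. Leaving out single arrays ended these 3 limma calls, Cbr3 without medium 9 or 11 (0.78 to 0.80, adjusted p = 0.051 to 0.0568), Prdx1 without oxPAPC 12 or 13 or medium 9, 10 or 11 (0.32 to 0.50, adjusted p = 0.0791 to 0.105) and Ugdh without oxPAPC 11 or 12 or medium 9, 10 or 11 (-0.46 to -0.78, adjusted p = 0.0592 to 0.185). Gclm, Slc7a11, Srxn1, Nqo1, Hmox1 and Gclc were each highest in oxPAPC array 13, whereas Txnrd1 was highest in oxPAPC array 12. Nfe2l2, the gene of NRF2 itself, had 10.32, 10.50 and 10.57 with oxPAPC, against 10.38, 10.33 and 10.25 in medium, and did not pass the test (limma adjusted p = 0.484; named after its values were seen). With the smooth muscle mean as a covariate the median of the list was 0.84, and with the endothelial mean 1.15.

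**Figure D2:**
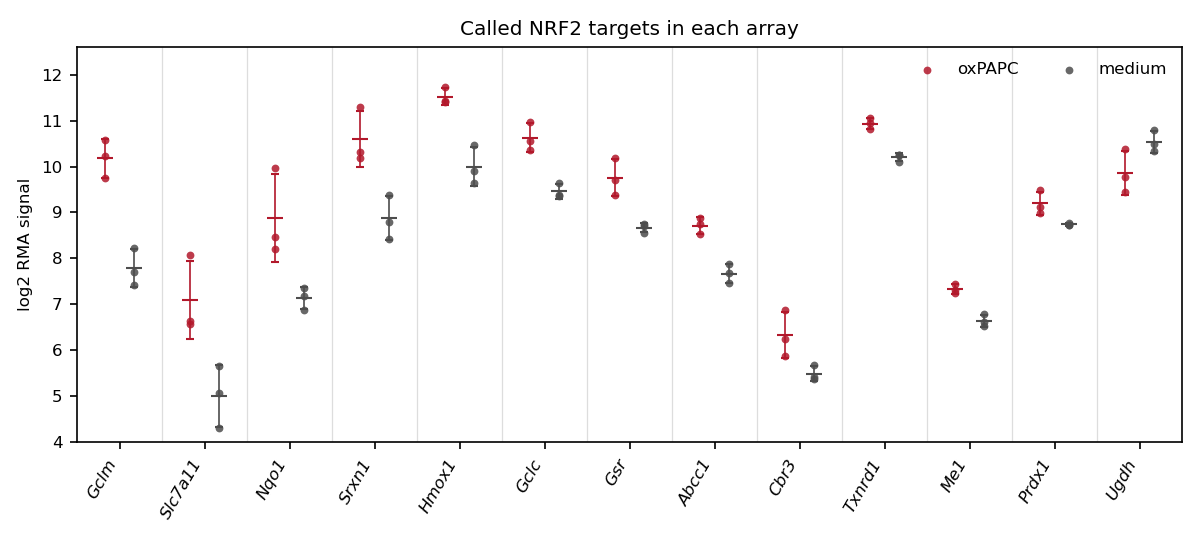
Log2 RMA signal of the 13 NRF2 targets that passed the test, in each oxPAPC array (red, left of each pair) and each medium array (grey, right), with mean and SD (n = 3). The groups are separate for every gene shown except Ugdh, the only one lower with oxPAPC.

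Ferroportin and catalase rose as well. Slc40a1, the iron exporter ferroportin, had 7.82, 7.92 and 7.73 with oxPAPC, against 6.31, 6.41 and 6.43 in medium, and rose by 1.44 ± 0.31 (SE; limma adjusted p = 0.00937). The oxPAPC arrays lay close together, more than 1 unit above medium. Of 7 tested metallothionein and iron genes, 3 rose and 1 fell (3 rises and 0 falls without medium 9, 2 and 0 without medium 11, 1 and 0 without oxPAPC 11 or 12 or medium 10). Mt1, a metal-binding metallothionein, had 8.19, 8.49 and 10.07 with oxPAPC, against 10.37, 10.24 and 10.32 in medium, so that array 13 was near the medium level and the other two were lower. Mt1 fell by 1.39, the metallothionein Mt3 rose by 0.58 and the metal importer Slc39a14 rose by 0.46. Limma lost these calls on leaving out single arrays, Mt1 without oxPAPC 11 or 12 or medium 9, 10 or 11 (-1.03 to -1.43, adjusted p = 0.0538 to 0.101), Mt3 without oxPAPC 11 or 12 or medium 10 or 11 (0.49 to 0.57, adjusted p = 0.0735 to 0.109) and Slc39a14 without oxPAPC 11, 12 or 13 or medium 9 or 10 (0.39 to 0.49, adjusted p = 0.0749 to 0.149). Catalase, Cat, which breaks down hydrogen peroxide, had 8.73, 8.83 and 8.23 with oxPAPC, against 7.37, 7.51 and 7.68 in medium, and rose by 1.08 ± 0.24 (limma adjusted p = 0.0109).

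Of 17 heat shock genes, all of them tested, 9 rose, 0 fell and 8 did not pass the test (10 rises and 0 falls without oxPAPC 13, 5 and 0 without oxPAPC 11 or 12 or medium 11), with a median of 0.54. Hspb8, a small chaperone that works with the autophagy factor Bag3, had 9.45, 9.50 and 9.27 with oxPAPC, against 7.92, 8.43 and 8.16 in medium, and rose by 1.24 ± 0.19 (SE; limma adjusted p = 0.00235). Hspa1b, the inducible Hsp70, had 11.22, 11.19 and 11.14 with oxPAPC, against 10.19, 10.12 and 9.96 in medium. It rose by 1.09 ± 0.29 (limma adjusted p = 0.0234), and the 2 groups were narrow and about 1 unit apart. The Hsp70 partners Dnajb4 (0.88), Dnaja1 (0.77) and Dnajb1 (0.56), the constitutive Hspa8 (0.54), the exchange factor Hsph1 (0.61), Hsp90aa1 (0.51) and the small heat shock protein Cryab (1.06) also rose. Calls of limma lost on leaving out an array were Hspa1b without oxPAPC 11 or 12 or medium 9, 10 or 11 (1.03 to 1.14, adjusted p = 0.0528 to 0.071), Cryab without oxPAPC 12 or 13 or medium 9 or 11 (0.77 to 1.09, adjusted p = 0.0661 to 0.107), Hsph1 without oxPAPC 11 or 12 or medium 10 or 11 (0.53 to 0.62, adjusted p = 0.0538 to 0.0799), Dnajb1 without oxPAPC 11 (0.53, adjusted p = 0.0514) and Hsp90aa1 without oxPAPC 11 or 12 or medium 9, 10 or 11 (0.42 to 0.56, adjusted p = 0.0578 to 0.114). With the endothelial mean as a covariate the median of the list was 0.10, and with the smooth muscle mean 0.53. The searched heat shock element, of 3 spaced and inverted repeats, was found in 0 of the 6 rising heat shock genes with a window, against 0.507% of tested genes. At so low a share, 0 is the likely count in any 6 genes, so no conclusion is drawn from it. Of 20 tested genes of endoplasmic reticulum chaperones and the unfolded protein response, 1 rose and 2 fell (4 rises and 3 falls without oxPAPC 13), with a median of -0.07. With all arrays, both shares are below the 8.34% higher and 12.9% lower of all tested genes. Xbp1, a transcription factor of that response, had 7.65, 7.65 and 7.73 with oxPAPC, against 8.68, 8.41 and 8.72 in medium, and fell by 0.92 (limma adjusted p = 0.0064). Atf6, a sensor of that response, fell by 0.91, and Edem1, which sends misfolded glycoproteins to degradation, rose by 0.63, although another probe set of Edem1 moved the other way.

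In the ATF4 amino acid stress programme more genes fell than rose. Of 27 tested, 10 fell and 1 rose (1 rise and 12 falls without oxPAPC 13, 1 and 6 without medium 10, 1 and 5 without oxPAPC 12), with a median of -0.35, and of -0.64 without oxPAPC 13. Chac1, which degrades glutathione and is a sensitive ATF4 target, had 7.70, 8.10 and 7.99 with oxPAPC, against 8.80, 9.07 and 8.94 in medium. It differed by -1.01 ± 0.17 (SE; limma adjusted p = 0.0031), and the groups did not overlap. Ddit3, the stress transcription factor CHOP, had 8.11, 7.61 and 8.63 with oxPAPC, against 8.83, 9.19 and 9.36 in medium, and fell by 1.01 (limma adjusted p = 0.0115). Among amino acid carriers, Slc7a5, the large neutral amino acid carrier, fell by 0.95, as did its partner chain Slc3a2 (-0.65) and the cationic amino acid carriers Slc7a1 (-0.86) and Slc7a3 (-1.02), the last with means below the 40th percentile in both groups. Slc3a2 is also the partner chain of Slc7a11, which rose. Among aminoacyl-tRNA synthetases, Gars fell by 0.88 and Aars fell by 1.14. The pseudokinase Trib3 fell by 1.10 and the ATF4 partner Cebpg fell by 0.49. Vldlr was the exception among the called genes of this list, at 8.77, 8.37 and 8.21 with oxPAPC, against 6.52, 6.77 and 7.74 in medium, a rise of 1.44 ± 0.32 (limma adjusted p = 0.0102), which was 0.16 with the smooth muscle mean as a covariate. Slc7a11, whose promoter window also holds TGATGNAA, is counted with the NRF2 targets and not in this list. Calls lost in limma on leaving out an array were Slc7a1 without oxPAPC 12 or medium 9 or 10 (-0.75 to -0.85, adjusted p = 0.0628 to 0.0836), Slc7a3 without oxPAPC 11 or 12 or medium 10 or 11 (-0.72 to -1.05, adjusted p = 0.0567 to 0.0889), Aars without oxPAPC 12 (-1.01, adjusted p = 0.0545), Trib3 without oxPAPC 11 or 12 or medium 10 or 11 (-0.86 to -1.10, adjusted p = 0.058 to 0.105) and Cebpg without oxPAPC 11 or 12 or medium 9, 10 or 11 (-0.40 to -0.52, adjusted p = 0.0739 to 0.152). Atf4 itself had 10.40, 10.65 and 10.55 with oxPAPC, against 10.47, 10.74 and 10.43 in medium, and did not pass the test (limma adjusted p = 0.967; named after its values were seen). With the endothelial mean as a covariate the list's median was -0.03, and with the smooth muscle mean -0.25.

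Of the 10 ATF4 genes that fell, 8 had a promoter window and 3 (Aars, Chac1 and Gars) held TGATGNAA, against 2.44% of tested genes with a window. The same letters were present in the Slc7a11 and Vldlr windows. The window of Chac1, at chr2:119350992-119351241 on the + strand of GRCm38.p6 in RefSeq, is given with the match in capitals for comparison with Slc7a11, and was chosen after its values were seen.
Chac1: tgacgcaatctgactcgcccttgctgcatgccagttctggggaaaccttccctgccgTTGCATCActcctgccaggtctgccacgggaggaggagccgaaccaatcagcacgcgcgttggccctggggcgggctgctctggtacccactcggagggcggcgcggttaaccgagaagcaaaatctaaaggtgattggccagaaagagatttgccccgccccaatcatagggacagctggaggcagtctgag
The match, on the opposite strand, begins 193 bases before the start. TGATGNAA was thus present before genes that rose and before genes that fell.

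Part of the cholesterol synthesis genes rose. Of 16 on the array, 11 were tested and 5 rose while 0 fell (4 rises and 0 falls without oxPAPC 13), with a median of 0.87. Sqle, squalene epoxidase, had 7.08, 7.05 and 6.36 with oxPAPC, against 5.22, 4.90 and 4.79 in medium, and rose by 1.86 ± 0.31 (SE; 3.63-fold; limma adjusted p = 0.00322). The groups were more than 1 unit apart. Idi1, the isomerase that readies isoprene units, had 9.60, 9.20 and 9.15 with oxPAPC, against 7.83, 7.65 and 7.69 in medium, and rose by 1.59 ± 0.31 (limma adjusted p = 0.00586). Hsd17b7, which reduces a sterol ketone, rose by 1.33, the sterol carrier Stard4 by 1.07 and the sterol oxidase Msmo1 by 1.01, the last with overlapping groups. Its limma call was lost on leaving out arrays, Msmo1 without oxPAPC 11 or 13 or medium 9 or 11 (0.79 to 0.96, adjusted p = 0.0809 to 0.162). The median of the list was 0.75 with the smooth muscle mean as a covariate and 0.20 with the endothelial mean. Of 7 tested targets of LXR, the sterol sensor that opposes cholesterol loading, 1 rose and 2 fell (0 rises and 2 falls without oxPAPC 11 or 13 or medium 10, 1 and 1 without medium 11, 0 and 1 without oxPAPC 12 or medium 9). Abcg1, a cholesterol exporter, had 7.10, 6.58 and 6.85 with oxPAPC, against 8.37, 7.70 and 8.41 in medium, and fell by 1.32 (limma adjusted p = 0.00701). Mylip, which degrades the LDL receptor, fell by 1.17 and the lipase Lpl rose by 0.95. Of 14 fatty acid and PPAR genes, 2 rose and 3 fell (1 rise and 3 falls without oxPAPC 13, 2 and 1 without medium 10, 0 and 3 without medium 11, 1 and 1 without oxPAPC 11, 0 and 1 without oxPAPC 12 or medium 9), shares not far from the 8.34% higher and 12.9% lower of all tested genes. Fabp5, the largest fall among them, had 6.28, 6.71 and 7.34 with oxPAPC, against 8.93, 8.82 and 9.16 in medium. Pdk4, which diverts pyruvate from oxidation, rose by 1.03 and Acadm, of medium-chain fatty acid oxidation, by 0.76. Calls of limma that single arrays ended were Mylip without oxPAPC 12 or medium 9 or 11 (-0.91 to -1.12, adjusted p = 0.0531 to 0.0779), Lpl without oxPAPC 11, 12 or 13 or medium 9 or 10 (0.81 to 1.09, adjusted p = 0.057 to 0.109), Pdk4 without oxPAPC 12 or medium 9 or 11 (0.82 to 0.99, adjusted p = 0.0654 to 0.0863) and Acadm without oxPAPC 11, 12 or 13 or medium 9 or 11 (0.52 to 0.81, adjusted p = 0.062 to 0.107).

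**Figure D3:**
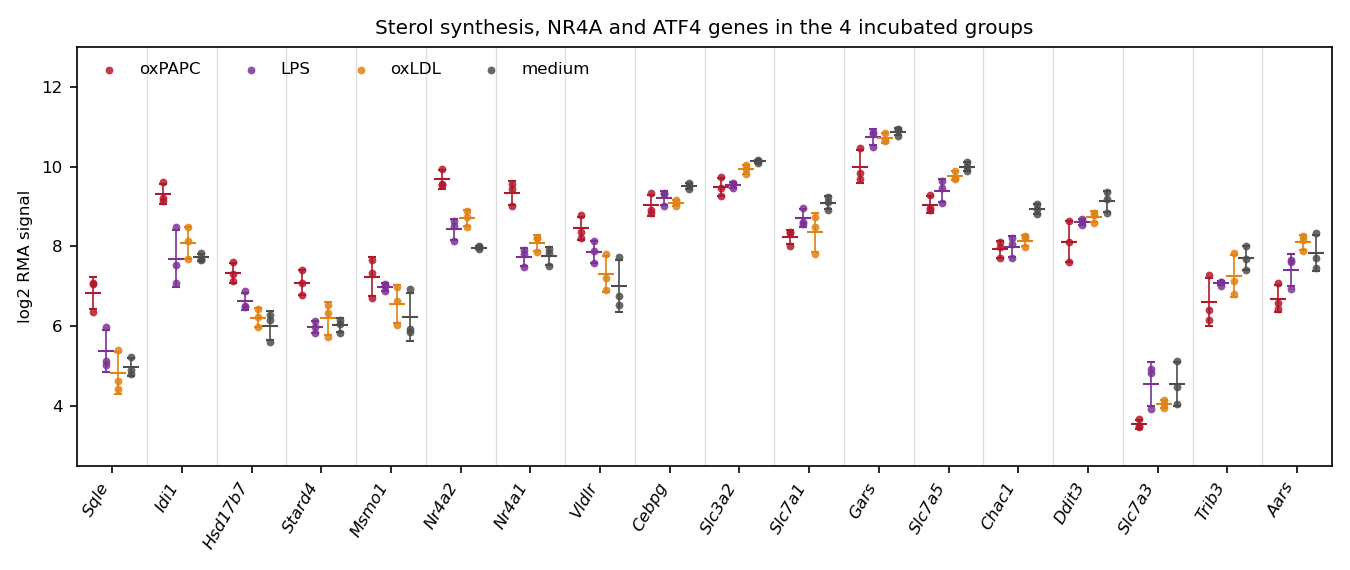
Log2 RMA signal of sterol synthesis genes, NR4A genes and ATF4 list genes in each array of the oxPAPC, LPS, oxLDL and medium groups, with mean and SD (n = 3 each). The 5 sterol genes, Nr4a2, Nr4a1 and Vldlr average higher with oxPAPC than in medium, and the 10 ATF4 list genes to the right of Vldlr average lower.

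Nuclear receptors of the NR4A family, immediate early genes of stimulated cells, rose. Nr4a2 had 9.55, 9.95 and 9.54 with oxPAPC, against 7.93, 7.97 and 8.01 in medium, and rose by 1.71 ± 0.17 (SE; 3.28-fold; limma adjusted p = 0.000504). Nr4a1 had 9.45, 9.56 and 9.0 with oxPAPC, against 7.5, 7.93 and 7.84 in medium, a rise of 1.58 ± 0.19 (limma adjusted p = 0.000886). For both, the groups were separated by more than 1 unit. Of 24 tested immediate early factors 6 rose and 1 fell (2 rises and 1 fall without medium 10, 3 and 0 without medium 11, 2 and 0 without oxPAPC 11 or 12), with a median of 0.20, which was -0.082 with the endothelial mean as a covariate. The third family member, Nr4a3, rose by 1.09, the AP-1 subunit Fos by 0.92 and Mafk, a small partner of NRF2 on DNA, by 0.62. These 3 calls of limma were lost without single arrays, Nr4a3 without oxPAPC 11, 12 or 13 or medium 9 or 10 (0.90 to 1.21, adjusted p = 0.0548 to 0.154), Fos without oxPAPC 11 or 12 or medium 10 or 11 (0.77 to 0.88, adjusted p = 0.0617 to 0.0949) and Mafk without oxPAPC 11 or 12 or medium 10 or 11 (0.48 to 0.61, adjusted p = 0.0528 to 0.0865). Of 13 tested MAP kinase phosphatases and Sprouty genes only Dusp14 was called (2 rises and 0 falls without oxPAPC 13 or medium 10, 0 and 0 without oxPAPC 11 or medium 9), with a rise of 0.59 that was lost in limma on leaving out arrays, Dusp14 without oxPAPC 11 or medium 9 (0.47 to 0.51, adjusted p = 0.0675 to 0.0682). The share of rises in this list is near the 8.34% of all tested genes.

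Of 25 cytokine and chemokine genes on the array, 15 passed the signal filter, and 4 of these fell while 2 rose (1 rise and 5 falls without medium 11, 1 and 3 without medium 9, 2 and 2 without oxPAPC 11, 1 and 2 without oxPAPC 12 or medium 10), with a median of -0.33, which was 0.022 with the smooth muscle mean as a covariate. Macrophage markers, 15 of which were tested, moved with them: their mean was 5.58, 5.48 and 5.59 with oxPAPC, against 6.30, 6.11 and 6.23 in medium, 9 of the 15 fell and 0 rose, and the part of this shift in the falls of inflammatory genes was not tested. Cxcl12, the homing chemokine of CXCR4-bearing cells, had 7.5, 7.49 and 7.96 with oxPAPC, against 10.52, 9.71 and 10.38 in medium. It differed by -2.55 ± 0.22 (SE; 5.87-fold lower; limma adjusted p = 0.000196), with more than 1 unit between the groups. Il1b, interleukin-1 beta, had 5.68, 6.28 and 5.68 with oxPAPC, against 8.46, 8.14 and 7.49 in medium, a difference of -2.16 ± 0.28 (limma adjusted p = 0.00104) without overlap. Il6, interleukin-6, had 3.24, 3.38 and 4.78 with oxPAPC, against 6.87, 6.18 and 5.13 in medium, and differed by -2.26 ± 0.67 (limma adjusted p = 0.0337). With oxPAPC, Il6 averaged below the 40th percentile. Ccl2, the monocyte attractant MCP-1, had 3.30, 3.63 and 3.98 with oxPAPC, against 4.41, 5.75 and 4.74 in medium, and fell by 1.33 (limma adjusted p = 0.0192), with all oxPAPC arrays below the 40th percentile. The 2 that rose were Csf1, the macrophage growth factor, by 0.80, and Cxcl2, a neutrophil attractant, by 0.56. Cxcl2 had 9.91, 9.89 and 10.03 with oxPAPC, against 9.41, 9.54 and 9.19 in medium, without overlap (limma adjusted p = 0.0156). Calls lost in limma on leaving out an array were Il6 without oxPAPC 11 or 12 or medium 9 or 10 (-1.86 to -2.2, adjusted p = 0.0791 to 0.119), Ccl2 without oxPAPC 11 or 12 or medium 10 (-0.94 to -1.33, adjusted p = 0.0556 to 0.076), Csf1 without oxPAPC 12 or medium 9 or 10 (0.69 to 0.77, adjusted p = 0.0605 to 0.0866) and Cxcl2 without medium 11 (0.47, adjusted p = 0.0556).

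Of 18 tested NF-kB subunits and feedback genes 6 fell and 0 rose (0 rises and 7 falls without oxPAPC 13), with a median of -0.35, which was 0.013 with the endothelial mean as a covariate. Bcl3, a nuclear IkB protein, had 5.29, 5.22 and 6.27 with oxPAPC, against 7.47, 7.42 and 7.41 in medium, and differed by -1.84 ± 0.28 (SE; limma adjusted p = 0.00193). The oxPAPC arrays all lay more than 1 unit below the medium arrays, which were close together. Tnip1, a partner of the ubiquitin editor A20, had 6.01, 6.47 and 7.25 with oxPAPC, against 8.0, 7.79 and 7.92 in medium, and fell by 1.33 (limma adjusted p = 0.00814). Tnfaip2 fell as well (-1.42), along with the ubiquitin ligases Birc3 (-1.27) and Birc2 (-1.08). In Tnip1, Tnfaip2 and Birc3, oxPAPC array 13 was the nearest to medium, and with the endothelial mean as a covariate these differences were 0.01, 0.09 and 0.02. Of 18 interferon response genes 3 fell and 0 rose (0 rises and 5 falls without medium 11, 1 and 3 without oxPAPC 13, 0 and 1 without oxPAPC 11 or 12 or medium 9 or 10), a share near that of all tested genes, namely the signal transducer Stat2 (-1.69), the GTPase Gbp2 (-1.49) and Ifi35 (-0.77). The limma calls on Gbp2 and Ifi35 were lost on leaving out single arrays, Gbp2 without oxPAPC 11 or 12 or medium 9 or 10 (-1.27 to -1.57, adjusted p = 0.0664 to 0.096) and Ifi35 without oxPAPC 11 or 12 or medium 9 or 10 (-0.61 to -0.82, adjusted p = 0.0543 to 0.088). Of 13 leukocyte adhesion genes, 5 fell and 3 rose (3 rises and 8 falls without oxPAPC 13, 1 and 4 without medium 11, 1 and 3 without medium 9, 0 and 4 without medium 10, 0 and 3 without oxPAPC 11 or 12), with a median of -0.81, which was 0.053 with the endothelial mean as a covariate. Selp, P-selectin, had 9.0, 9.40 and 10.70 with oxPAPC, against 11.22, 11.11 and 11.14 in medium, and fell by 1.46 (limma adjusted p = 0.0111). Vcam1, which binds monocytes, had 9.23, 9.39 and 10.32 with oxPAPC, against 10.88, 10.43 and 10.48 in medium, with array 13 near the medium range. Vcam1 differed by -0.95, a call that was lost in limma on leaving out arrays, Vcam1 without oxPAPC 11 or 12 or medium 9 (-0.74 to -0.82, adjusted p = 0.0822 to 0.0881). With the endothelial mean as a covariate, Selp differed by 0.05 and Vcam1 by -0.04.

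**Figure D4:**
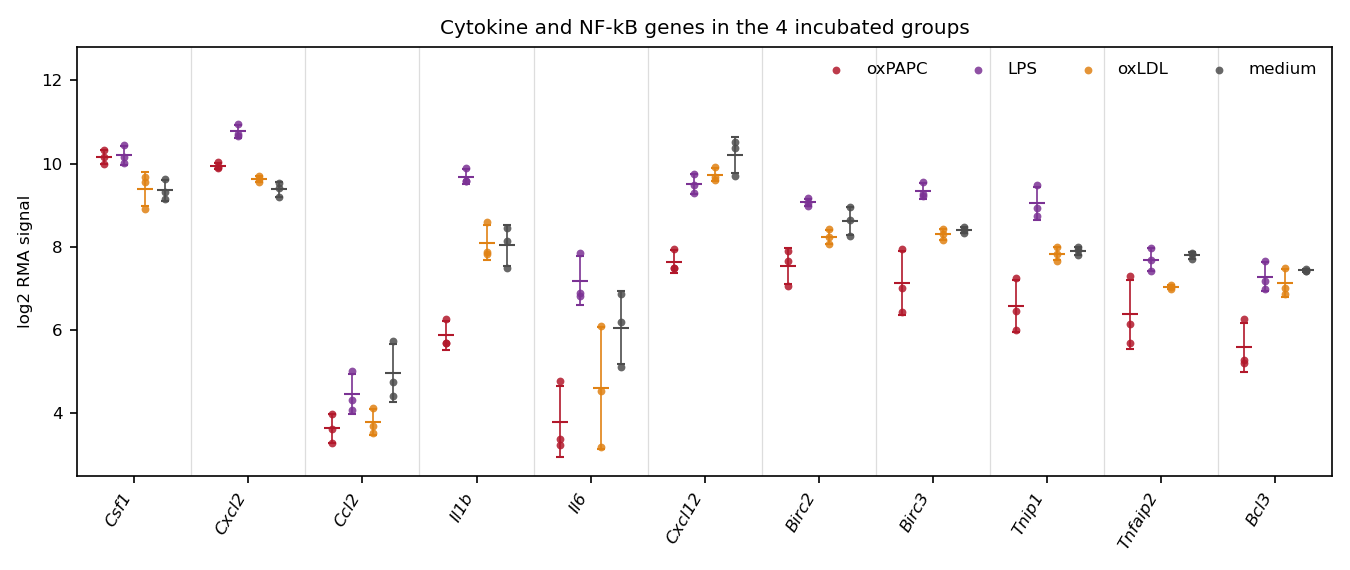
Log2 RMA signal of cytokine, chemokine and NF-kB genes in each array of the oxPAPC, LPS, oxLDL and medium groups, with mean and SD (n = 3 each). Il1b, Cxcl12, Birc3, Tnip1 and Bcl3 are lower in every oxPAPC array than in any array of the other groups, whereas Csf1 and Cxcl2 are higher than in medium.

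In a list of receptors and enzymes of oxidized phospholipids and of other lipid signals, genes fell or did not pass the test. Of 20 tested, 5 fell and 0 rose (0 rises and 6 falls without oxPAPC 13, 0 and 2 without oxPAPC 11 or 12, 0 and 1 without medium 9), with a median of -0.43. Sphk1, which makes sphingosine-1-phosphate, had 6.35, 6.37 and 6.52 with oxPAPC, against 7.29, 7.33 and 7.60 in medium, and fell by 0.99 (limma adjusted p = 0.00132). S1pr1, the main endothelial receptor of that lipid, had 9.70, 10.01 and 10.74 with oxPAPC, against 11.15, 11.07 and 10.88 in medium, and fell by 0.88, with array 13 nearest to medium. Plpp3, a lipid phosphatase, fell by 0.70. Tlr2, a pattern receptor, fell by 1.11 and Gpx4, which reduces phospholipid hydroperoxides, fell by 0.68. Calls of limma lost without an array were Tlr2 without oxPAPC 11 or 12 or medium 9 or 10 (-1.0 to -1.16, adjusted p = 0.0626 to 0.0805), S1pr1 without oxPAPC 11 or 12 or medium 9 (-0.66 to -0.83, adjusted p = 0.0564 to 0.0611), Plpp3 without oxPAPC 11 or 12 or medium 9 or 11 (-0.58 to -0.70, adjusted p = 0.0514 to 0.0863) and Gpx4 without medium 9 (-0.56, adjusted p = 0.0507). Of 7 scavenger receptor genes 3 fell and 0 rose. Olr1, the oxidized LDL receptor LOX-1, had 5.54, 5.70 and 8.26 with oxPAPC, against 9.20, 9.37 and 8.88 in medium. It differed by -2.65 ± 0.56 (SE; 6.29-fold lower; limma adjusted p = 0.00909), and array 13 stood more than 2 units above the other oxPAPC arrays, just below medium. Stab1, stabilin-1, fell by 1.24 and Cxcl16, a membrane chemokine that binds oxidized lipoprotein, fell by 0.90.

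Among 17 tested endothelial markers 9 fell and 0 rose (0 rises and 11 falls without oxPAPC 13), with a median of -0.82, and other endothelial genes moved in both directions. Markers did not move alike, since Cdh5, the cadherin of endothelial junctions, had 9.41, 9.53 and 10.27 with oxPAPC, against 10.64, 10.44 and 10.71 in medium (difference -0.86, limma adjusted p = 0.0185), while Pecam1 differed by -0.03 (limma adjusted p = 0.901). Among junction genes, 4 of 15 fell and 2 rose (2 rises and 6 falls without oxPAPC 13). Cldn5, the tight junction protein claudin-5, had 7.43, 7.73 and 8.57 with oxPAPC, against 9.47, 9.47 and 9.49 in medium, and differed by -1.56 ± 0.30 (SE; limma adjusted p = 0.0056). It differed by -0.04 with the endothelial mean as a covariate, but Cldn5 is itself one of the markers in that mean, which draws its difference towards 0. Gja4, the arterial gap junction protein connexin 37, had 6.62, 7.26 and 7.54 with oxPAPC, against 8.94, 8.59 and 8.53 in medium, and fell by 1.54 (limma adjusted p = 0.00131), which was -1.24 with that covariate. The related Gja5 fell by 1.17, and the adhesion proteins Ctnnd1 and Vcl both rose by 0.84. Of 19 genes of quiescence and nitric oxide, 4 fell and 3 rose (4 rises and 5 falls without oxPAPC 13, 2 and 2 without medium 9, 1 and 2 without oxPAPC 11 or 12). Nos3, endothelial nitric oxide synthase, had 5.84, 6.49 and 7.90 with oxPAPC, against 7.92, 8.34 and 8.28 in medium, with array 13 close to medium. Nos3 differed by -1.44, a call that was lost in limma on leaving out most arrays, Nos3 without oxPAPC 11 or 12 or medium 9, 10 or 11 (-0.98 to -1.56, adjusted p = 0.0636 to 0.126). The prostacyclin synthase Ptgis and the endothelin-processing enzyme Ece1 both fell by 0.88. Of 16 VEGF and angiogenic factors 5 fell and 1 rose (0 rises and 3 falls without medium 9, 1 and 1 without oxPAPC 11 or medium 11, 0 and 1 without oxPAPC 12 or medium 10). Pgf, placental growth factor, had 4.16, 3.89 and 4.03 with oxPAPC, against 6.47, 5.81 and 5.36 in medium, and fell by 1.86 (limma adjusted p = 0.00125), with all oxPAPC arrays below the 40th percentile. Of 17 Notch and arterial genes 3 fell, among them the receptor Notch1 (-0.75), and 1 rose (4 rises and 3 falls without oxPAPC 13, 0 and 2 without oxPAPC 12, 0 and 1 without oxPAPC 11 or medium 9 or 10). Over all tested genes, 8.34% were higher and 12.9% lower. With all arrays the Notch shares are near these, and only a few genes separate the nitric oxide and coagulation counts from them. Of 12 coagulation genes 3 fell and 0 rose (0 rises and 4 falls without oxPAPC 13, 0 and 1 without oxPAPC 11 or 12 or medium 9 or 10), led by Plat, tissue plasminogen activator, at 7.29, 7.70 and 9.26 with oxPAPC, against 9.88, 9.81 and 10.11 in medium. Eng, the endothelial co-receptor of TGF-beta, fell by 1.32 and Egfl7, a secreted endothelial matrix protein, fell by 1.51.

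Of 15 smooth muscle markers 10 rose and 0 fell (5 rises and 0 falls without oxPAPC 11 or medium 9), with a median of 1.0. Myocd, the master coactivator of that cell type, had 9.80, 9.65 and 9.29 with oxPAPC, against 7.86, 8.48 and 8.84 in medium, and rose by 1.19 (limma adjusted p = 0.00781). Myl9, Tpm2 and Mylk, of the contractile apparatus, rose by 1.25, 1.11 and 1.09, and the limma call on the first was lost on leaving out arrays, Myl9 without oxPAPC 11 or medium 9 (0.95 to 1.16, adjusted p = 0.0529 to 0.0534). In these genes medium array 11 was the nearest to the oxPAPC arrays. The median difference of the 15 macrophage markers was -0.76, with 9 falls (0 rises and 7 falls without oxPAPC 13, 0 and 5 without medium 11, 0 and 4 without oxPAPC 11 or medium 9, 0 and 3 without oxPAPC 12). C1qa, of the complement trigger C1q, had 4.48, 4.38 and 4.51 with oxPAPC, against 5.69, 5.30 and 5.86 in medium, and fell by 1.16 (limma adjusted p = 0.00356), with all oxPAPC arrays below the 40th percentile. Of genes of antigen presentation, 5 of 12 tested fell and 0 rose (0 rises and 3 falls without oxPAPC 12, 0 and 2 without medium 9, 0 and 1 without oxPAPC 11 or medium 10), and the class II gene H2-Eb1 had 7.18, 7.02 and 7.16 with oxPAPC, against 8.36, 8.48 and 8.23 in medium. Of other cell types, 0 of 2 tested lymphocyte and neutrophil markers passed the test (1 rise without oxPAPC 11), led by S100a9 (0.40, limma adjusted p = 0.196). Also 0 of 2 cardiac and skeletal muscle markers passed it (1 rise without medium 11), led by Ryr2 (1.13, limma adjusted p = 0.0711). No adipocyte marker passed the signal filter. Of 6 nerve and mesothelial markers, 5 had negative differences, with a median of -0.77. The only one called was the glial factor Sox10, which rose by 0.44 (1 rise and 1 fall without oxPAPC 13, 0 and 2 without medium 11, 0 and 0 without oxPAPC 11 or 12 or medium 9 or 10). The limma call on Sox10 was lost without oxPAPC 11 or 12 or medium 9, 10 or 11 (0.42 to 0.46, adjusted p = 0.0642 to 0.0922). Of 9 fibroblast markers 2 fell and 0 rose (0 rises and 3 falls without oxPAPC 13), the matrix proteoglycans Lum (-1.86, below the 40th percentile on average with oxPAPC) and Dcn (-0.81). Of 6 red cell and platelet markers 2 fell and 0 rose (0 rises and 1 fall without oxPAPC 11 or 12 or medium 9 or 11, 0 and 0 without medium 10), and the haemoglobin gene Hba-a1 had 6.22, 8.19 and 8.99 with oxPAPC, against 9.64, 10.69 and 9.52 in medium, without overlap. It differed by -2.15, by -1.36 without oxPAPC 11, and its limma call was lost on leaving out 1 array, Hba-a1 without medium 10 (-1.78, adjusted p = 0.0615).

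Some basement membrane, matrix, TGF-beta and BMP genes were called in each direction. With all arrays, their shares are not far from the 8.34% higher and 12.9% lower of all tested genes. Of 17 basement membrane and matrix genes 3 fell and 2 rose (5 rises and 3 falls without oxPAPC 13, 4 and 3 without medium 11, 1 and 3 without oxPAPC 12, 0 and 3 without oxPAPC 11 or medium 9), and Nid1, nidogen, fell by 0.73 while Hspg2, perlecan, had 6.22, 6.40 and 6.40 with oxPAPC, against 7.06, 7.35 and 8.38 in medium. Of 20 TGF-beta and BMP genes 4 fell and 2 rose (5 rises and 5 falls without oxPAPC 13, 1 and 5 without oxPAPC 12, 1 and 4 without oxPAPC 11 or medium 9), with Ltbp1, which stores latent TGF-beta, up by 1.14 and the receptor Tgfbr2 down, at 8.09, 8.26 and 8.39 with oxPAPC, against 8.95, 9.39 and 9.43 in medium. Of 23 hypoxia and glycolysis genes 3 fell and 0 rose (1 rise and 5 falls without oxPAPC 13, 0 and 1 without oxPAPC 12). Pfkfb3, an activator of glycolysis in endothelium, had 9.06, 8.97 and 8.93 with oxPAPC, against 10.54, 10.16 and 10.49 in medium, and differed by -1.41 ± 0.15 (SE; limma adjusted p = 0.000504). Of 34 ribosomal proteins 8 fell and 0 rose (0 rises and 9 falls without oxPAPC 13, 0 and 3 without medium 10, 0 and 2 without oxPAPC 11, 0 and 1 without oxPAPC 12 or medium 9), with a median of -0.23. Of 34 oxidative phosphorylation genes 5 fell and 0 rose (0 rises and 7 falls without oxPAPC 13, 0 and 1 without medium 10 or 11, 0 and 0 without oxPAPC 11 or 12 or medium 9), with a median of -0.24. Of 31 proteasome genes 4 fell and 1 rose (1 rise and 6 falls without oxPAPC 13, 1 and 0 without oxPAPC 11 or 12 or medium 9 or 10, 0 and 0 without medium 11), with a median of -0.20, which was 0.092 with the smooth muscle mean and 0.35 with the endothelial mean as a covariate. The shares of falls among hypoxia and glycolysis, oxidative phosphorylation and proteasome genes are near the 12.9% of all tested genes. Rps14, of the small subunit, fell by 0.71 (limma adjusted p = 0.00845). Of 18 autophagy and lysosome genes 4 fell and 1 rose (1 rise and 3 falls without oxPAPC 13, 0 and 3 without oxPAPC 11 or medium 10 or 11, 0 and 2 without oxPAPC 12 or medium 9), and the protease Ctsa fell by 1.06. Of 16 p53 targets 2 fell and 2 rose (2 rises and 3 falls without oxPAPC 13, 1 and 2 without medium 11, 1 and 1 without oxPAPC 11 or 12 or medium 9 or 10), with Pmaip1, the death protein NOXA, at 5.15, 3.83 and 5.10 with oxPAPC, against 6.85, 6.48 and 6.20 in medium, and Polk up by 0.80. Of 12 mitosis and replication genes 1 fell and 1 rose, the cyclin Ccne1 (0.73) (1 rise and 0 falls without oxPAPC 11 or 13 or medium 9, 10 or 11). The share of falls among p53 targets is also near 12.9%. For mitosis genes the share of rises is near the 8.34% of all tested genes, and the share of falls is below 12.9%.

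**Figure D5:**
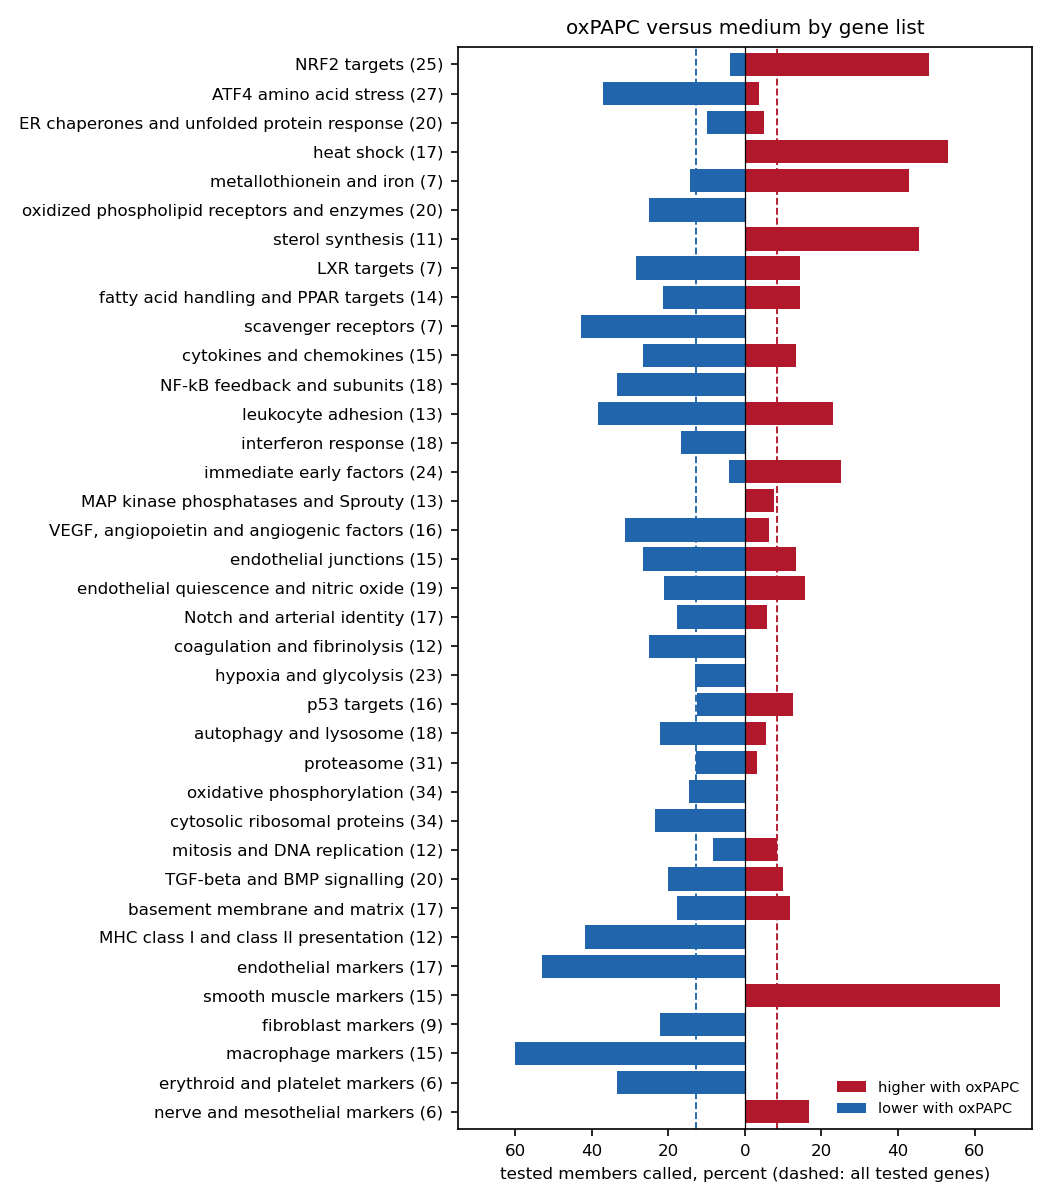
Percent of tested members of each gene list that were called higher (red, right of 0) or lower (blue, left of 0) with oxPAPC than in medium, for lists of at least 5 tested members, with their number in brackets. Dashed lines mark the 8.34% higher and 12.9% lower of all 7550 tested genes. Many lists exceed them. On the right they include NRF2, heat shock, sterol, smooth muscle, metallothionein and iron, immediate early and leukocyte adhesion lists. On the left they include ATF4, endothelial, macrophage, scavenger receptor, antigen presentation, leukocyte adhesion and NF-kB lists.

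Set directly against LPS, oxPAPC differed in 653 of 7550 genes (8.65%), 299 higher (3.96%) and 354 lower (4.69%). This contrast uses the same oxPAPC arrays as the comparison with medium, and 50 µg/mL of lipid stands against 4 ng/mL of LPS. The endothelial marker mean was 7.60, 7.66 and 8.01 with oxPAPC, against 8.20, 7.92 and 7.84 with LPS, and the smooth muscle mean was 8.96, 8.89 and 8.57 with oxPAPC, against 8.54, 8.50 and 8.75 with LPS, so that both overlapped. The 5 largest differences were of interferon-induced and inflammatory genes that were lower with oxPAPC. Cxcl10, an interferon-induced chemokine, had 4.70, 5.87 and 5.22 with oxPAPC, against 10.07, 9.58 and 9.01 with LPS, a difference of -4.29 ± 0.34 (SE; limma adjusted p = 4.47e-05). Rsad2, the antiviral protein viperin, had 5.58, 6.66 and 6.67 with oxPAPC, against 10.82, 10.37 and 9.56 with LPS. Rsad2 differed by -3.95, the antiviral gene Ifit1 by -3.76, the collagenase Mmp13 by -3.84 and Il1b by -3.81. In these 5 genes the groups did not overlap, and every call remained with each array left out in turn. Of 18 interferon genes, 13 were lower with oxPAPC than with LPS and 0 higher, and the same counts held for the 18 NF-kB genes, while 10 of 15 cytokines were lower and 0 higher. The signal filter asked for 3 of the 12 incubated arrays, so the 3 LPS arrays alone could admit a gene. These list counts may thus lean towards genes high with LPS. Among all genes called against LPS, 43 averaged below the 40th percentile with oxPAPC. Of 25 NRF2 targets 12 were higher with oxPAPC than with LPS and 0 lower (median 0.71, against -0.01 over all tested genes). Heat shock genes were higher in 8 of 17 and lower in 0. The largest positive difference was that of Slc40a1, at 7.82, 7.92 and 7.73 with oxPAPC, against 3.93, 4.43 and 4.01 with LPS (3.70, limma adjusted p = 6.08e-05), but its LPS arrays were all below the 40th percentile, so neither its size nor its rank is exact. Lpl, Cks2 (a cell cycle kinase subunit), Rasl2-9 and Polg2 followed, with 2.36, 2.36, 2.36 and 2.35, and Cks2 and Rasl2-9 averaged below the 40th percentile with LPS, as Mmp13 did with oxPAPC. Slc7a11, by contrast, had 6.57, 6.63 and 8.07 with oxPAPC, against 6.54, 7.09 and 6.43 with LPS, and did not pass the test (0.40, 95% interval -0.53 to 1.34; limma adjusted p = 0.599). Leaving out oxPAPC array 13 gave 1206 calls against LPS, leaving out oxPAPC array 11 or 12 gave 259 or 244, and leaving out LPS array 3 or 4 gave 320 or 261.

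Set directly against oxLDL at the same mass per volume, 50 µg/mL, oxPAPC differed in 934 genes (12.4%), 345 higher (4.57%) and 589 lower (7.8%). OxLDL is a whole lipoprotein particle, so equal mass is not equal phospholipid, and the contrast again uses the same oxPAPC arrays. The endothelial marker mean of 7.60, 7.66 and 8.01 with oxPAPC lay below that of 8.10, 8.14 and 8.33 with oxLDL, and the smooth muscle mean of 8.96, 8.89 and 8.57 with oxPAPC overlapped that of 8.68, 8.61 and 8.24 with oxLDL. Gclm had 9.74, 10.22 and 10.58 with oxPAPC, against 7.62, 8.16 and 7.95 with oxLDL, a difference of 2.27 ± 0.25 (SE; limma adjusted p = 0.000881). Slc7a11 had 6.57, 6.63 and 8.07 with oxPAPC, against 4.35, 4.96 and 5.35 with oxLDL, a difference of 2.2. Tktl1 was higher with oxPAPC by 2.28, Cat by 2.26 and Polg2 by 2.18. Of 25 NRF2 targets 8 were higher with oxPAPC than with oxLDL and 0 lower, with a median of 0.38, against -0.04 over all tested genes. Nqo1 did not pass the test, at 8.47, 8.21 and 9.98 with oxPAPC, against 7.94, 7.82 and 8.13 with oxLDL (difference 0.92, 95% interval 0.13 to 1.71), nor did Txnrd1, at 10.81, 11.05 and 10.94 with oxPAPC, against 10.55, 10.72 and 10.73 with oxLDL (difference 0.27, 95% interval -0.01 to 0.54). Sterol synthesis genes were higher in 7 of 11 and lower in 0, among them Sqle, which had 7.08, 7.05 and 6.36 with oxPAPC, against 5.41, 4.63 and 4.41 with oxLDL (difference 2.02). The 5 largest negative differences were those of Olr1 (-2.47), Il1b (-2.22), Cxcl12 (-2.09), Cldn5 (-1.97) and Trub2, an RNA pseudouridine synthase (-1.92). Olr1 had 5.54, 5.70 and 8.26 with oxPAPC, against 9.53, 8.65 and 8.74 with oxLDL, and its limma call was lost without oxPAPC 11 or 12 or oxLDL 14 (-2.0 to -2.2, adjusted p = 0.0539 to 0.0732). Endothelial markers were lower in 6 of 17 and higher in 0, and smooth muscle markers were higher in 1 of 15 and lower in 0. Leaving out oxPAPC array 13 gave 1370 calls against oxLDL, leaving out array 11 or 12 gave 388 or 348, and leaving out oxLDL array 16 gave 434.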

How the data were processed

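RNA of luminal aortic cells, with an integrity number of 7.0 or more and amplified with a NuGEN kit, was hybridised to 1-colour expression arrays, per the labels' protocols. The deposited table holds log2 values, used as given. The submitters' processing notes name RMA and affy, with no version, as what the authors used. The genome build behind the probe sets is not given in the sources used here. Arrays hold no counts, so the number of arrays limits the precision.

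Probe sets were named from the platform annotation: of 22626, 18003 had 1 gene symbol, 287 several and 4336 none, and of those with 1, 17977 matched current symbols. For 4150 of 11807 genes with several probe sets, the one with the highest mean over all 22 arrays was used. Genes above the 40th percentile of an array's probe sets in at least 3 of the 12 incubated arrays were tested (7550). A gene high in a single group could thus enter. limma 3.58.1 in R 4.3.3 fitted the 4 incubated groups of 3 arrays together (lmFit, eBayes), and p-values were adjusted over all tested genes by Benjamini-Hochberg, with calls at 0.05. The fit was tested on simulated data. Alternatives were the normalization, filter, probe-set rule, limma settings, array weights, marker means as covariates and leaving out each array. Named genes are the 12 largest rises and falls against medium, called members of the core lists, up to 5 called members of each other list by size (the smallest p where none was called) and the 5 largest each way in the contrasts with LPS and oxLDL. Members and lists were chosen with earlier results of these data known. Promoter windows of 250 bases came from RefSeq tables for GRCm38.p6 and were searched for fixed motifs.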

Additional observations from a re-analysis of the deposited data

How the results depend on the processing

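No paired analysis was possible because the groups compared share fewer than 2 replicate numbers. Against medium, the 1606 calls (630 higher, 976 lower) became 2917 (1241 and 1676) with array weights, 0 (0 and 0) with the smooth muscle marker mean as a covariate and 2 (1 and 1) with the endothelial mean, and ranged over 735 to 1999 (280 to 806 and 455 to 1193) with each array left out. Against LPS, the 653 calls (299 and 354) became 347 (159 and 188) with only the 2 groups compared in the fit, 2040 (926 and 1114) with array weights, 420 (184 and 236) with the smooth muscle mean, 232 (98 and 134) with the endothelial mean and 244 to 1206 (98 to 526 and 140 to 680) with arrays left out. Against oxLDL, the 934 calls (345 and 589) became 549 (218 and 331), 1767 (696 and 1071), 434 (169 and 265), 26 (16 and 10) and 348 to 1370 (132 to 498 and 216 to 872) in the same order. A fit with fewer arrays or a further term has less power by construction, and otherwise the cause was not tested. Of 187 named genes called against medium, 95 stayed called with each of the 6 arrays left out. With cyclic loess, median centring, no level filter, a 50th percentile filter, averaged probe sets, or limma with trend and robust settings, the counts of calls stayed within 1.5 times the reported ones, and 1606, 1606, 1606, 1480 (all that this filter kept), 1595 and 1606 of the 1606 differences kept their sign. Named differences from medium changed sign with the smooth muscle mean as a covariate for Rbp4 -0.056, Nr4a3 -0.10, Gucy1a1 -0.079, Rps18 0.025, Col3a1 -0.19, Myl9 -0.050, Ryr2 -0.53, Rsad2 1.06, Mmp13 0.45 and Ifit1 0.55. With the endothelial mean this held for Tead4 0.32, Trib3 0.23, Cebpg 0.064, Hspa1b -0.054, Hsph1 -0.011, Pdk4 -0.14, Tnfaip2 0.090, Tnip1 0.0082, Birc3 0.018, Selp 0.053, Podxl 0.69, Mcam -0.19, Tie1 0.48, Flt4 0.40, Nos3 0.80, Psmb6 0.042, Rplp2 0.015, Alas2 0.32, Rsad2 0.92 and Ifit1 0.64. Without oxPAPC 11 it held for Rsad2 0.14. Myl9 is itself a member of the smooth muscle mean, and Tie1 of the endothelial mean. The 40th percentile of signal lay near 4.6 in the oxPAPC and medium arrays, and 82 called genes averaged below it with oxPAPC and 86 in medium, where signals are close to the floor of the array. Of 1183 further probe sets of called genes, 945 moved as the one used.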

Other observations

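Levels in fresh wild-type aortas are given as values without a test, since fresh and incubated aortas differ in handling as well as in treatment. Several genes that fell with oxPAPC were low in fresh aortas. Il6 had 3.24, 3.38 and 4.78 with oxPAPC and 6.87, 6.18 and 5.13 in medium, against 2.58 to 2.62 (median 2.61) in the 6 fresh wild-type arrays. Olr1 had 5.54, 5.70 and 8.26 with oxPAPC and 9.20, 9.37 and 8.88 in medium, against 3.20 to 3.53 (median 3.30) fresh, so that every oxPAPC and medium array was above every fresh one. Igfbp3 had 3.47, 3.55 and 3.97 with oxPAPC, against 7.44, 8.74 and 6.48 in medium and 3.63 to 3.91 (median 3.75) in fresh aortas. Il1b had 5.68, 6.28 and 5.68 with oxPAPC, above its range of 4.00 to 4.57 (median 4.28) in fresh aortas. Cxcl12 differed from these, since its oxPAPC levels of 7.5, 7.49 and 7.96 lay below its range of 8.22 to 9.45 (median 9.16) in fresh aortas.

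Among genes that rose, Hmox1 had 11.40, 11.43 and 11.73 with oxPAPC and 9.90, 10.47 and 9.63 in medium, against 4.09 to 5.08 (median 4.70) in fresh aortas, below both incubated groups. Slc7a11 had 6.57, 6.63 and 8.07 with oxPAPC and 5.06, 5.65 and 4.31 in medium, against 2.94 to 3.28 (median 3.09) fresh. Gclm had 9.74, 10.22 and 10.58 with oxPAPC and 7.43, 8.23 and 7.72 in medium, against 7.00 to 7.44 (median 7.32) fresh, so that the fresh and medium levels lay close together. Every oxPAPC and medium array was also above the fresh range of Sqle, 3.81 to 4.44 (median 4.31), and of Nr4a2, 5.47 to 5.86 (median 5.57).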
